A study of Mus musculus with 3 samples.

Results

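The 10 genes followed here are widely used as readouts of YAP and TEAD activity and were measured across the cells of mouse arteries: Ccn1, Ccn2, Ankrd1, Ajuba, Lats2, Amotl1, Amotl2, Axl, Nuak2 and Fjx1. They were taken by name from the 32285 genes of the count matrices, and all 10 were listed. Levels are given as CPM, the UMIs (molecules, counted by their tags) of a gene for every 1000000 UMIs of a class of cells in a library. The leading result concerned Ccn2. In endothelium it stood at 297 CPM with vehicle and at 1286 with sunitinib, while in smooth muscle it stood at 3204 and 3265.

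The cells came from digested arteries of wild-type mice and were profiled by droplet single-cell sequencing of transcript 3' ends, in which a unique molecular identifier (UMI) marks each captured molecule. There were 3 libraries, each labelled 3 weeks and WT: a vehicle control, sunitinib, and sunitinib plus Yoda1. Sunitinib is an inhibitor of receptor tyrosine kinases given against tumours, and Yoda1 activates PIEZO1, an ion channel that opens when the membrane is stretched. The third library is titled with Yoda1 alone and was taken as the combined treatment because the series' design text names no other group with Yoda1. Dose, age, sex and the number of mice behind a library are not given in the sources used here. Each group was 1 library, so no difference below has a replicate check, and the 95% intervals below describe counting error alone.

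Kept cells had 500 or more UMIs, 300 or more genes and no more than 15% of UMIs from mitochondrial genes. Smooth muscle cells were those with at least 2% of UMIs from Acta2, Tagln, Myh11 and Cnn1. Endothelial cells were those with at least 3 of Pecam1, Cdh5, Egfl7, Ptprb and Vwf detected and less than 1% of UMIs from those contractile genes. This gave 3614, 3818 and 65 smooth muscle cells and 145, 179 and 366 endothelial cells in the vehicle, sunitinib and combined libraries. All 10 smooth muscle markers and all 11 endothelial markers checked had UMIs in their own class in every library. These lists, and the sums below, include the 4 and 5 genes that define the classes, so their presence there follows from the rules. Presence also did not separate the classes, since all 10 smooth muscle markers had UMIs in endothelium in every library. Endothelial markers summed to 57.9, 62.9 and 69.5 CPM in smooth muscle, with Cdh5, Kdr, Tek, Cldn5 and Emcn at 0 in the combined library, against 9717, 10347 and 7957 CPM in endothelium. The kept cells of different libraries shared 1 to 5 cell barcodes, and no doublet caller was applied.

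The combined library stood apart from the other libraries. Smooth muscle made up 2.08% of its kept cells, against 91.6% with vehicle and 92.0% with sunitinib. Its endothelium carried 4546 CPM of the capillary genes Rgcc, Cd36, Gpihbp1 and Car4, against 37.2 and 1.68, and 31441 CPM of red cell markers, against 7.30 and 2.81. It was also counted with Cell Ranger 7.1.0, which includes intronic reads by default, whereas the other matrices came from version 6.0.0. Treatment, the vessel bed sampled and the counting version cannot be told apart in any comparison with this library.

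In the Hippo pathway, the kinases LATS1 and LATS2 phosphorylate the coactivators YAP and TAZ (gene Wwtr1) and keep them out of the nucleus. When this restraint is low, as on stiff or stretched substrates, YAP and TAZ enter the nucleus and act on genes through the TEAD transcription factors. Several targets feed back on the pathway: LATS2 and the angiomotins AMOTL1 and AMOTL2 restrain YAP. In vessel walls the matricellular targets CCN1 and CCN2 are known as products of smooth muscle and endothelium under mechanical load.

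The short motif bound by TEAD factors reads GGAATG, or CATTCC on the other strand. The RefSeq promoter table (GRCm38.p6) held 7 of the 10 genes, with Ccn2, Nuak2 and Fjx1 named only. Of these 7 genes, 5 had at least 1 such motif in the 250 bases before the start, namely Ccn1, Ankrd1, Ajuba, Amotl2 and Axl, and Lats2 and Amotl1 had none. The RefSeq starts searched lay 12265 and 23970 bases (Lats2), 30056 bases (Amotl1) and 1132 bases (Amotl2) from the gene start in the GENCODE annotation. For Ankrd1 the distance was 255 bases, for Ajuba 103, for Axl 28 and for Ccn1 4. The windows of Lats2, Amotl1, Amotl2 and Ankrd1 lay inside the gene as GENCODE places it. Windows at those other starts were not searched. Ankrd1 and Ajuba had 2 sites each. Of 32851 promoters in the table, 12.6% held the motif in a window of that length. The genes were picked as known targets, so this count is a description. The AP-1 motif TGANTCA, found in 6.75% of promoters, and the SRF motif known as the CArG box, found in 1.47%, had no match in the windows of these genes on either strand. The windows of Ccn1 (chr3:145649986-145650235, minus strand), Ajuba (chr14:54577662-54577911, minus strand) and Axl (chr7:25788734-25788983, minus strand) are shown because these genes gave 3 different patterns across the cells below. Each is written 5′ to 3′ in the direction of transcription, ending just before the start, with the motif in capitals.
Ccn1: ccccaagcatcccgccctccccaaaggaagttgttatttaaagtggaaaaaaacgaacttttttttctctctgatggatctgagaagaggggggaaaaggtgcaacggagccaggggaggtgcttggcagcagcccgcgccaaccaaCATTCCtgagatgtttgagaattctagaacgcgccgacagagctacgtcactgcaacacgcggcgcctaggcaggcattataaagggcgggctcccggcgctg
Ajuba: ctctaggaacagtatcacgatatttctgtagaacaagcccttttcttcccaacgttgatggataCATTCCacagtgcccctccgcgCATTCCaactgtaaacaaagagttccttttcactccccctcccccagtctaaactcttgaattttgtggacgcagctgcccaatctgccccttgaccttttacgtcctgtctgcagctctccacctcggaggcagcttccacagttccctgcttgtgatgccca
Axl: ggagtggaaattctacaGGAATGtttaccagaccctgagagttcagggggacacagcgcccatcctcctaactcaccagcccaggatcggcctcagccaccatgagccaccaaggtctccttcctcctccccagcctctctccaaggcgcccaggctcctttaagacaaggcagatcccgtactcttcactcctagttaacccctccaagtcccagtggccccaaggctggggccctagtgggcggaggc
The site of Ccn1 began 103 bases before the start, those of Ajuba 186 and 164 bases, and that of Axl 233 bases. The sites of Ankrd1 began 210 and 123 bases before its RefSeq start and that of Amotl2 65 bases.

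The genes fell into different patterns by cell type before any treatment was compared. With vehicle, Ccn2 was the highest of the 10 in smooth muscle and Ccn1 the highest in endothelium. In the vehicle library Axl was lower in endothelium than in smooth muscle, by a log2 ratio of -4.42 (-5.74 to -3.38). Fjx1 was lower by -5.56 (-8.60 to -3.70), from 2 endothelial UMIs, and Ankrd1 had 1 endothelial UMI. Ajuba, Amotl2 and Amotl1 were higher in endothelium by 2.45, 1.34 and 1.14. Lats2 stood at similar levels in both classes, with a log2 ratio of -0.24 (-0.50 to 0.016). UMIs of a 3' assay are counted once per molecule and are not divided by gene length.

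**Figure D1:**
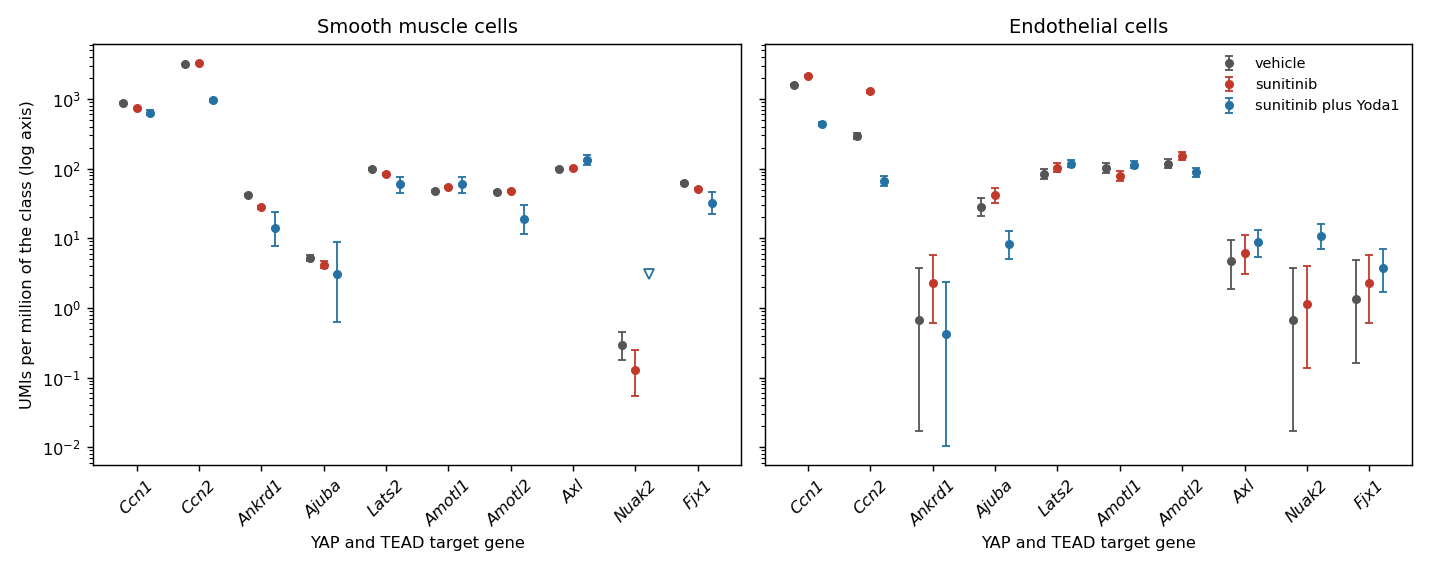
Level of each gene in smooth muscle (left) and endothelium (right) in the vehicle, sunitinib and combined libraries, as CPM UMIs of the class on a log axis, 1 library per point. Bars are exact Poisson intervals and the open triangle marks the level of 3 UMIs where none was counted. In endothelium Ccn2 stands at 297 with vehicle, 1286 with sunitinib and 66.5 in the combined library.

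CCN1 and CCN2 are secreted matricellular proteins that bind integrins. Ccn2 (chr10:24595442-24598683 on GRCm38, plus strand) had 448 UMIs in vehicle endothelium and 2290 in sunitinib endothelium, 297 and 1286 CPM. The log2 ratio was 2.11 (1.97 to 2.26), a 4.33-fold higher level with sunitinib. In smooth muscle its log2 ratio was 0.027 (0.019 to 0.036), and it became -0.057 with TMM and -0.066 with median-of-ratios factors, which scale by the bulk of the genes. Sunitinib endothelium thus reached 1286 where sunitinib smooth muscle had 3265.

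Single cells showed how the Ccn2 level was spread. A UMI of Ccn2 was found in 55.9% of vehicle and 74.9% of sunitinib endothelial cells. After each cell was thinned to 2000 UMIs, with 133 and 160 cells deep enough, the shares were 25.6% and 56.9%. The median cell had 77.3 CPM with vehicle and 445 with sunitinib, and the upper quartile was 323 and 1823. The tenth of cells with most Ccn2 held 65.4% of its UMIs with vehicle and 59.3% with sunitinib, and without those cells the levels were 125 and 696.

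Other RNA moved with this result, and its size can be set against it. The 10 smooth muscle markers summed to 1210 CPM in vehicle endothelium and 2343 in sunitinib endothelium, with none at 0 in either. Fibroblast markers summed to 316 and 302 CPM. Scaled by the 4 contractile genes, smooth muscle RNA would make up 1.90% and 3.78% of the endothelial UMIs and bring 60.9 and 123 CPM of Ccn2, against the 297 and 1286 measured. With that share taken off, the Ccn2 log2 ratio was 2.32. In cells with under 0.2% contractile UMIs the levels were 280 and 924.5 and the ratio was 1.72. When the contractile limit was 2%, with 151 vehicle and 184 sunitinib cells, the levels were 399 and 1308 and the ratio was 1.71. The ratio was 2.03 in cells without a UMI of Cd74, the invariant chain gene of MHC class II, which 106 of 145 vehicle and 59 of 179 sunitinib endothelial cells carried. It was 2.12 with and 2.09 without a UMI of the posterior Hox genes, which mark the position along the aorta.

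Ccn1 (chr3:145646976-145649981, minus strand) is an early-response gene as well as a YAP target. In endothelium it stood at 1580 with vehicle and 2132 with sunitinib, a log2 ratio of 0.43 (0.36 to 0.51). The median cell, however, had 1272 and 1261 CPM, the 90th percentile was 3340 and 3740, and with equal weight per cell the ratio was 0.21. In smooth muscle Ccn1 was lower with sunitinib, at 735 against 889, a log2 ratio of -0.27 (-0.29 to -0.26), and 91.3% against 96.3% of cells had a UMI. The 15 immediate early genes, which also respond to tissue digestion, summed to 16696 against 22461 CPM in smooth muscle and to 16273 against 19033 in endothelium. Among smooth muscle cells above the median immediate early share the Ccn1 ratio was -0.081, and among those at or below it -0.28. Among endothelial cells at or below that median the Ccn1 ratio was 1.0 and the Ccn2 ratio 2.42, and above it they were 0.31 and 2.0.

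**Figure D2:**
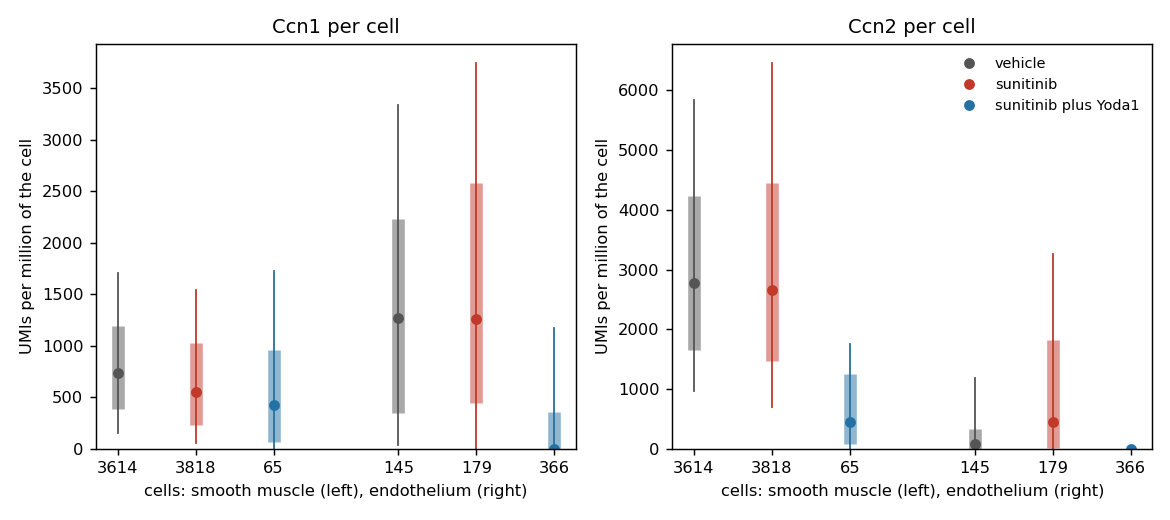
Ccn1 (left) and Ccn2 (right) in single cells, as CPM of the cell, for 3614, 3818 and 65 smooth muscle cells and 145, 179 and 366 endothelial cells of the 3 libraries. Points are medians, wide bars run from the 25th to the 75th percentile and thin lines from the 10th to the 90th. The Ccn2 median of endothelium is 77.3 with vehicle, 445 with sunitinib and 0 in the combined library.

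Taken over all cells of a class, the Hippo components among the targets were within 1.5-fold in both classes with sunitinib. Of all genes, 7.41% were higher and 4.76% lower by 1.5-fold or more in smooth muscle, and 13.3% and 5.52% in endothelium. LATS2 is the kinase that phosphorylates YAP, AMOTL1 and AMOTL2 are scaffolds that hold YAP at junctions, and AJUBA is a LIM protein that binds and inhibits LATS kinases. Lats2 (chr14:57689662-57758388) was lower with sunitinib in smooth muscle, 83.3 against 99.4, a log2 ratio of -0.25 (-0.31 to -0.20), and in endothelium it stood at 103 against 84.3, with an interval that held 0 (-0.040 to 0.63). A predicted coding gene, Gm49361, overlaps Lats2 on the same strand, so some of its UMIs are uncertain. Amotl1 (chr9:14541966-14645056) was at 53.8 against 47.1 in smooth muscle, a log2 ratio of 0.19, and at 79.2 against 104 in endothelium, where the ratio of -0.39 (-0.73 to -0.049) turned to 0.64 in cells without a posterior Hox UMI. In endothelial cells with such a UMI Amotl1 was lower past 1.5-fold, at 70.9 against 118, so the value over all cells joins opposite directions. Amotl2 (chr9:102716672-102733418) was at 48.4 against 46.5 in smooth muscle, a ratio of 0.057 that turned to -0.027 with TMM factors. In endothelium it was at 152 against 118, a ratio of 0.36 (0.082 to 0.64) that became -0.22 when cells were thinned. Ajuba (chr14:54567472-54577558) had few UMIs, 74 in sunitinib and 43 in vehicle endothelium, and its ratio of 0.54 (-0.019 to 1.12) was 1.98 in cells without (52 and 4 UMIs) and -0.37 in cells with a UMI of Cd74. In smooth muscle Ajuba was at 4.18 against 5.23.

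Ankrd1 and Fjx1 had enough UMIs for a ratio only in smooth muscle. ANKRD1 is an ankyrin-repeat cofactor of striated and smooth muscle that responds to stretch. Ankrd1 (chr19:36111961-36120099) stood at 42.2 CPM with vehicle and 28.0 with sunitinib, in 28.1% and 20.4% of smooth muscle cells, a log2 ratio of -0.59 (-0.68 to -0.51). This lay just past 1.5-fold. It was within 1.5-fold in cells with at most 5% mitochondrial UMIs (-0.32), without an endothelial UMI (-0.52), with a posterior Hox UMI (-0.58) or thinned (-0.57). FJX1 is the four-jointed homologue, a secreted or Golgi kinase of the Fat and Dachsous branch. Fjx1 (chr2:102449366-102452499) was at 62.5 and 50.4 in smooth muscle, a ratio of -0.31 (-0.37 to -0.24). Endothelium had 1 and 4 UMIs of Ankrd1 and 2 and 4 of Fjx1, too few for a comparison.

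The kinases AXL, a receptor for GAS6, and NUAK2, of the AMPK family, differed from each other in where they were found. Between smooth muscle and endothelium, Axl (chr7:25757273-25788705) was found mainly in smooth muscle. It stood there at 99.7 with vehicle and 101 with sunitinib, and its log2 ratio of 0.023 (-0.026 to 0.073) turned to -0.061 with TMM factors. Nuak2 (chr1:132316126-132333488) was near the limit of detection, with 20 UMIs in vehicle and 8 in sunitinib smooth muscle (0.289 and 0.127 CPM). Its ratio of -1.18 (-2.57 to 0.063) was past 1.5-fold by value, with an interval that held 0, and it was 0.37 in cells without a posterior Hox UMI, from 4 UMIs in each library.

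Across the list, a gene was counted as higher or lower where it had at least 20 UMIs over both libraries and differed at least 1.5-fold, which is a size and not a test. For sunitinib against vehicle in smooth muscle all 10 genes had that many UMIs, none was higher and 2, Ankrd1 and Nuak2, were lower (0 to 2 over the alternatives). Of 13961 genes, 7.41% were higher and 4.76% lower. The median log2 ratio of the 10 was -0.26, and that of all genes 0.09. In endothelium 6 of the 10 had enough UMIs (Ccn1, Ccn2, Ajuba, Lats2, Amotl1 and Amotl2), 1 of them, Ccn2, was higher and none lower. With all endothelial cells, 13.3% of 8988 genes were higher and 5.52% lower, and the medians were 0.40 for the 6 and 0.12 for all genes. Over other choices of cells and scaling 1 to 3 of the members were higher and at most 1 was lower. The count was 3 of 6 in cells at or below and above the median immediate early share, without Cd74 and without a posterior Hox UMI. In these settings in turn, 15.1%, 16.7%, 22.9% and 15.7% of all genes were higher. Scaling by median-of-ratios factors instead of the total brought the medians of all genes to -0.0034 in smooth muscle and -0.0050 in endothelium. The shares of genes higher and lower then became 5.33% and 6.15% in smooth muscle and 8.91% and 8.56% in endothelium.

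**Figure D3:**
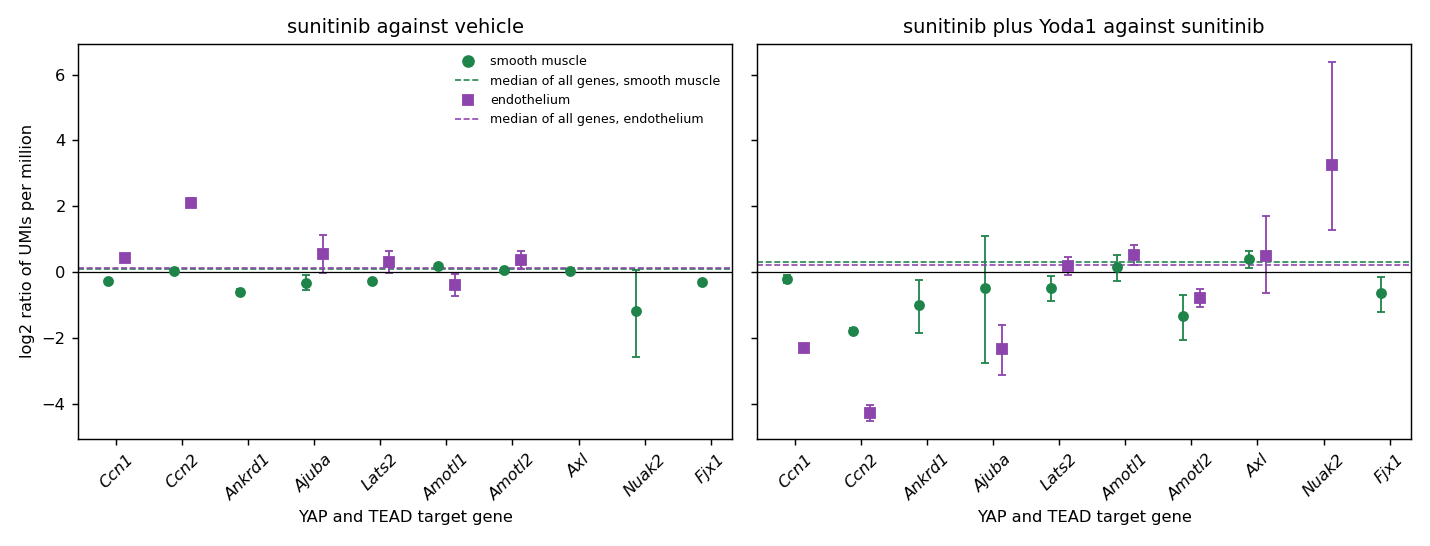
Log2 ratio of each gene with at least 20 UMIs over both libraries, in smooth muscle (circles) and endothelium (squares), for sunitinib against vehicle (left) and sunitinib plus Yoda1 against sunitinib (right). Bars are counting intervals and dashed lines the medians of all genes. Ccn2 in endothelium stands at 2.11 on the left and -4.27 on the right.

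The regulators of these targets were measured beside them. With vehicle, sunitinib and both compounds in turn, Yap1 stood at 44.9, 39.7 and 43.3 CPM in smooth muscle and at 49.1, 34.8 and 40.7 in endothelium. Wwtr1, which encodes TAZ, stood at 92.1, 97.4 and 116 in smooth muscle and at 176, 221 and 370 in endothelium. Tead1 stood at 74.0, 72.6 and 105 in smooth muscle and at 43.8, 61.2 and 91.0 in endothelium. For sunitinib against vehicle these 3 genes were within 1.5-fold in both classes, but Yap1 in endothelium, at a log2 ratio of -0.50, was past it with TMM (-0.60) and median-of-ratios factors (-0.62). Against sunitinib, Wwtr1 was past it in the endothelium of the combined library, at 0.75, and short of it with median-of-ratios factors.

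Of 29 genes of the Hippo core, 28 were measured in smooth muscle, and none was 1.5-fold higher or lower with sunitinib, with a median log2 ratio of -0.0026 (-0.087 with TMM factors), where 7.41% and 4.76% of all genes were. The lowest were Frmd6 (-0.57, and -0.65, past 1.5-fold, with TMM factors) and Vgll4 (-0.18), and the highest Limd1 (0.37) and Wwc1 (0.34). In endothelium 2 of 25 were higher and 2 lower, where 13.3% and 5.52% of all genes were. With TMM factors these counts were 1 and 4, the lower ones then including Yap1 and Fat4. The higher genes were Limd1 (0.79), a LIM protein that inhibits LATS kinases, and Tead2 (0.59, 41 against 23 UMIs, interval -0.18 to 1.40), which was at 0.49 with TMM factors. The 2 that were lower there were Vgll4 (-1.10, 32 against 58 UMIs), a competitor of YAP for TEAD, and the kinase gene Stk4 (-1.06, 17 against 30 UMIs).

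Other YAP and TEAD targets, 19 genes that the 10 do not include, gave different counts in the classes. In smooth muscle none of 17 measured was higher and 3 were lower (4 with TMM factors), where 7.41% and 4.76% of all genes were, the lowest being Tgfb2 (-0.91), a TGF-beta ligand, and Thbs1 (-0.86), which encodes thrombospondin-1. The highest were F3 (0.57) and Col8a1 (0.47). In endothelium 4 of 14 were higher and 1 lower (3 and 1 with TMM factors), where 13.3% and 5.52% of all genes were, with Thbs1 (1.05) and Edn1 (0.86), the endothelin gene, at the top and Gadd45b (-1.03) and Col8a1 (-0.46) at the bottom. Thbs1 was thus lower with sunitinib in smooth muscle and higher in endothelium, as values of single libraries.

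Targets of MRTF and SRF, a second actin-regulated transcription system, were set beside these. In smooth muscle none of 12 was higher or lower, where 7.41% and 4.76% of all genes were. Myl9 (0.40) and Cnn2 (0.18) were highest there and Srf (-0.33) and Tpm4 (-0.23) lowest. In endothelium all 10 measured had a log2 ratio above 0, 3 were higher (2 with TMM factors) and none lower, where 13.3% and 5.52% of all genes were. The median was 0.40, against 0.12 for all genes. Tpm1 (0.84) and Myl9 (0.73) led, and Tpm4 (0.16) and Actg1 (0.22) were lowest. Myl9 is itself a smooth muscle marker, and the smooth muscle RNA in endothelium given above moved the same way.

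**Figure D4:**
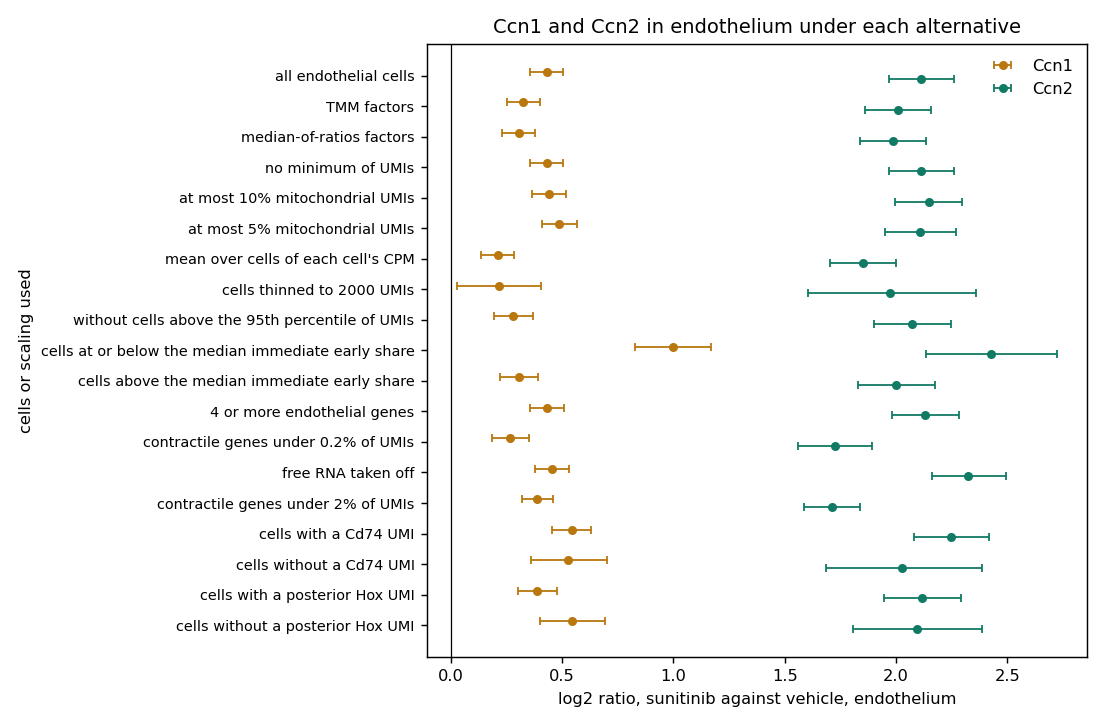
Log2 ratio of Ccn1 and Ccn2 for sunitinib against vehicle in endothelium, with counting intervals, for all endothelial cells and for each alternative choice of cells or scaling. The Ccn2 ratio runs from 1.71 to 2.42 and the Ccn1 ratio from 0.21 to 1.0.

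The third library was compared with sunitinib alone to ask what Yoda1 added, within the limits given at the start. In endothelium Ccn1 stood at 436 CPM, against 2132 with sunitinib and 1580 with vehicle, a log2 ratio to sunitinib of -2.29 (-2.39 to -2.19). Ccn2 stood at 66.5 against 1286, a ratio of -4.27 (-4.51 to -4.04), and 7.38% of cells had a UMI of it, against 0.398% of the B cell-like cells of this library. Those 160 UMIs lay in 27 of 366 cells. In cells with no UMI of the 4 capillary genes, 45 of 366 in this library and 176 of 179 with sunitinib, Ccn1 was at 865 against 2167 and Ccn2 at 133 against 1269. Both stayed lower there, by log2 ratios of -1.33 and -3.26. Immediate early genes summed to 5926 CPM in this endothelium, against 16273 with sunitinib. The Ccn2 ratio was -5.19 in cells at or below and -3.62 in cells above the median immediate early share, and the Ccn1 ratio -1.97 and -2.09.

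The Hippo components differed among themselves in this endothelium. Ajuba was lower, at 8.31 against 41.6, a log2 ratio of -2.32 (-3.11 to -1.59) from 20 and 74 UMIs. Amotl2 was at 88.1 against 152, a ratio of -0.78 (-1.05 to -0.52) that became 0.03 when cells were thinned and -0.27 when each cell had equal weight. Lats2 was at 118 against 103, and Amotl1 at 114 against 79.2. The last 2 genes have long introns, and genes of like intron length had median ratios of 0.51 and 1.29, so that relative to such genes Lats2 was at -0.32 and Amotl1 at -0.76. Nuak2 had 26 UMIs against 2, a ratio of 3.27 (1.27 to 6.39), and 15 of 366 cells carried it. Among the 45 cells with no UMI of the capillary genes it had 1 UMI. B cell markers summed to 30.8 CPM in this endothelium, against 0 with sunitinib, and macrophage markers to 12.5 against 15.2. The part of such RNA in the Nuak2 count was not tested. Axl had 21 UMIs against 11.

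In smooth muscle the combined library gave 65 cells. Ccn2 was at 953 against 3265 with sunitinib, a log2 ratio of -1.78 (-1.87 to -1.68), and 78.5% against 98.7% of cells had a UMI. Its ratio was -1.33 in cells with and -2.31 in cells without a posterior Hox UMI. Ccn1 was at 635 against 735, a ratio of -0.21 (-0.33 to -0.098), which turned to 0.11 in cells at or below the median immediate early share. Ankrd1 (14 UMIs), Amotl2 (19 UMIs) and Fjx1 (32 UMIs) were lower, with ratios of -0.99, -1.34 and -0.65. Lats2 was at 59.4 against 83.3, Amotl1 at 59.4 against 53.8 (a ratio of 0.14, and -0.19 with TMM factors) and Axl at 133 against 101. Genes of like intron length had median ratios here of 0.37 for Lats2 and Axl and of 0.95 for Amotl1. Relative to such genes Lats2 and Amotl1 stood lower, while Axl, at a ratio of 0.39, stood level with them. Ajuba had 3 UMIs. Nuak2 had 0 UMIs, and the limit of 3 UMIs that a count of 0 allows is 3.02 CPM, above the 0.127 with sunitinib. Pericyte markers summed to 893 CPM in these cells, against 1906 with sunitinib, with none of 4 at 0. Their part was not tested.

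By the same count, none of 9 measured genes was higher in this smooth muscle and 4 were lower (Ccn2, Ankrd1, Amotl2 and Fjx1), where 32.9% of 13111 genes were higher and 10.1% lower. With TMM factors the shares of all genes were 22.8% and 22.5%, and 6 of the 9 were lower. Relative to genes of like intron length 6 of the 9 were lower as well, where 21.7% of all genes were higher and 18.3% lower. In endothelium 1 of 8 was higher, Nuak2, and 4 were lower (Ccn1, Ccn2, Ajuba and Amotl2), where 37.2% of 10521 genes were higher and 19.7% lower. Haemoglobin RNA takes part of the total in this library. With it left out the counts for endothelium were 2 and 4 of 8, where 39.0% and 17.8% of all genes were higher and lower. The median log2 ratio was -0.49 over the 9 genes in smooth muscle, against 0.30 for all genes, and with TMM factors -0.82 against -0.038. That 0.30 includes 823 genes with a count of 0 in a library, which was set to 3. With zeros ranked as extremes the median of all genes was 0.17, and over genes with at least 3 UMIs expected in each library 0.12. In endothelium the median was -0.30 over the 8 genes against 0.23, and with TMM factors -0.45 against 0.081. Both comparisons share the sunitinib library.

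The rest of the pathway was mixed in the third library, and its genes were not set against genes of like intron length. Of the Hippo core in endothelium, 11 of 26 genes were higher and 2 lower than with sunitinib, a share of higher genes near the 37.2% of all genes, with Fat4 (3.75) and Tead4 (2.70) highest and Ptpn14 (-0.79) and Tead2 (-0.70) lowest. In smooth muscle 10 of 28 were higher and 1 lower, near the 32.9% of all genes that were higher there, and with TMM factors 5 and 3 were, with Stk3 (1.41) and Wwc1 (1.30, from 7 UMIs) highest and Wtip (-0.80) and Rassf1 (-0.39) lowest. Other YAP and TEAD targets in endothelium had 5 of 17 higher and 9 lower, where 37.2% and 19.7% of all genes were. Thbs1 (-5.21) and Gadd45b (-4.40) were lowest, and Igfbp3 (3.69) was highest with Dock5, which had 26 UMIs against 0 and so a ratio of at least 2.68. In smooth muscle 6 of 16 were higher and 2 lower, where 32.9% and 10.1% of all genes were, and with TMM factors 4 and 4 were, with Col8a1 (3.92) and Thbs1 (3.18) highest and Gadd45b (-3.05) and Edn1 (-1.21, from 4 UMIs) lowest. Of the MRTF and SRF targets, 2 of 11 were higher and 4 lower in endothelium, where 37.2% and 19.7% of all genes were, from Zyx (-2.64) and Tpm1 (-1.02) to Srf (1.57) and Cnn2 (1.16). In smooth muscle 1 of 12 was higher, Fhl2 (1.05), and none lower, where 32.9% and 10.1% of all genes were. With TMM factors Zyx and Actg1 were lower there. By totals Cnn2 stood at 0.23, Zyx at -0.46 and Actg1 at -0.27.

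Cells outside both classes in the third library separated the 10 genes further. Cells with at least 3 markers of a type were grouped as fibroblast-like (197 cells), B cell-like (1006), T cell-like (686), macrophage-like (108) and Schwann cell-like (58). The vehicle and sunitinib libraries held 14 and 10 fibroblast-like cells and no type with 50 cells, so these levels have no counterpart there. Ccn1, Ccn2, Amotl1, Amotl2 and Ajuba were at most 0.893 CPM in B cell-like and T cell-like cells, which also had at most 1.24 of Yap1, Wwtr1 and Tead1. A UMI of Ccn1 was found in 0.298% of B cell-like cells, with a median of 4794.5 UMIs, against 44.3% of endothelial cells, with 4668.5. Lats2, whose UMIs can include those of the overlapping Gm49361, stood at 123 CPM and in 45.5% of B cell-like cells, at 53.2 in T cell-like and at 62.1 in macrophage-like cells. Nuak2, at 10.8 or less in smooth muscle and endothelium, stood at 41.9 in B cell-like and 65.2 in macrophage-like cells, and in T cell-like cells at 2.14. Axl was highest in fibroblast-like cells, at 256 CPM and in 72.1% of cells, and stood at 86.4 in macrophage-like cells. Fibroblast-like cells had 204 CPM of Ccn1 and 76.5 of Ccn2.

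**Figure D5:**
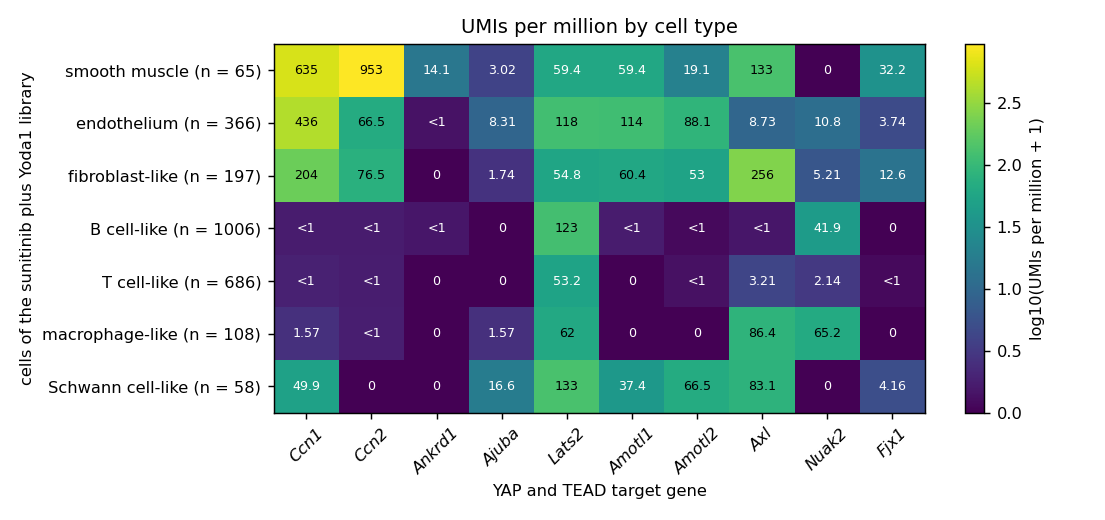
Level of the 10 genes in 7 groups of cells of the combined library, printed as CPM and coloured as log10 of that level plus 1. Ccn1 and Ccn2 fall below 1 in B cell-like and T cell-like cells, where Lats2 stands at 123 and 53.2.

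Within smooth muscle cells the 2 leading targets were accompanied by different genes. In 3559 vehicle cells thinned to 5000 UMIs, the 5 genes of 4832 most correlated with Ccn1 were Fos (Pearson r of 0.231), Atf3 (0.208), Jun (0.20), Egr1 (0.188) and Dusp1 (0.187). In 3506 sunitinib cells the same pairs had r of 0.303, 0.280, 0.215, 0.288 and 0.238. For Ccn2 the 5 were Hspa1b (0.320), Hspa8 (0.315), Hsp90aa1 (0.301), Tnfrsf12a (0.270) and Hspb1 (0.269), and with sunitinib 0.182, 0.244, 0.214, 0.230 and 0.228. Fos, Jun, Egr1 and Atf3 are early-response transcription factors, Hspa1b, Hspa8, Hsp90aa1 and Hspb1 are chaperones, and Tnfrsf12a encodes the TWEAK receptor. Ccn1 and Ccn2 themselves had r of 0.144 and 0.155, and Ccn2 and Ankrd1 0.109 and 0.127. These correlations are weak, describe cells of 1 library each that share their digestion, and carry no test. Heat shock genes summed to 4911 CPM in vehicle and 2693 in sunitinib smooth muscle, where the Ccn2 level was 3204 and 3265.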

How the data were processed

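Single cells of digested arteries were measured in 3 libraries, 1 per group. The authors deposited raw counts, UMIs of each gene in each barcode. Per the file headers, Cell Ranger 7.1.0 made the matrix of the combined library and 6.0.0 those of vehicle and sunitinib. The build mm10, Cell Ranger and Seurat are named per the submitters' processing notes. The sources used here do not give whether intronic reads were kept. Gene names and barcodes were taken from the deposited lists.

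The libraries held 73901343, 66769480 and 28364203 UMIs in 4491, 4506 and 5118 barcodes, of which 3947, 4148 and 3130 cells passed the filters. UMIs were summed per class and library and given as CPM (numpy 2.4.6, scipy 1.17.1, pandas 2.3.3, Python 3.11.15). Levels carry exact Poisson intervals, shares exact (Clopper-Pearson) intervals and log2 ratios exact conditional binomial intervals. UMI intervals cover counting error only. A ratio against a count of 0 was computed against 3 and is a bound, and genes with at most 3 UMIs in both libraries got none. The median over the genes is a description, since a group of 1 library leaves no test and no replicate to leave out. TMM (edgeR 4.0.16) and median-of-ratios factors (DESeq2 1.42.0) were alternatives, with no model fitted. The ratio code was tested on simulated data. Positions and intron lengths come from GENCODE vM21 on GRCm38, and promoters from RefSeq.

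Named are the 10 genes, Yap1, Wwtr1 and Tead1, the 2 highest and 2 lowest genes of each list by class and comparison, and the 5 genes most correlated with Ccn1 and with Ccn2. The doublet rate is unknown, since no caller was run. The genes, classes and lists were chosen with earlier results of these data known.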

Additional observations from a re-analysis of the deposited data

Results flagged for a closer look

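Ccn1 went opposite ways with sunitinib in the 2 classes, lower in smooth muscle (-0.27) and higher in endothelium (0.43), a gap of 0.71 between the log2 ratios. Amotl1 did the reverse, with a gap of -0.58. In endothelial cells without a posterior Hox UMI, however, Amotl1 was higher with sunitinib, at 103 CPM against 66.0, and in those with such a UMI lower, at 70.9 against 118. The median endothelial cell had 1261 CPM of Ccn1 with sunitinib and 1272 with vehicle. With 1 library per group neither gap was tested.

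Several genes had a signal in cells of the combined library that the comparisons between groups do not use. Lats2 stood at 123 CPM and Nuak2 at 41.9 in B cell-like cells, where Ccn1 and Ccn2 were at 0.708. Nuak2 stood at 65.2 in macrophage-like cells and Axl at 256 in fibroblast-like cells.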

How the results depend on the processing

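The medians over the genes kept their direction under every alternative except 1. Each was set against a band from the median of the genes' lower counting limits to the median of their upper ones. That band is not a counting interval of the median itself. Of the values of these 4 medians under alternatives, 61 lay within the band and 6 outside it. For sunitinib against vehicle in smooth muscle (-0.26) these were TMM (-0.35) and median-of-ratios factors (-0.36), the full range being -0.36 to -0.070 (at most 5% mitochondrial UMIs). In endothelium (0.40) there was none, the range being 0.22 to 0.61. For the combined library against sunitinib in smooth muscle (-0.49) it was cells above the median immediate early share (-0.013, 5 cells). In endothelium (-0.30) these were thinned cells (0.027, the exception), cells above that share (-1.34) and cells with no capillary UMI (-1.37). Of single genes past 1.5-fold, 4 values changed sign: Nuak2 in smooth muscle with sunitinib (0.37, without a posterior Hox UMI), and in the combined library Ankrd1 (0.92, at most 5% mitochondrial UMIs, 9 cells) and Amotl2 (0.28, above the immediate early share) in smooth muscle and Amotl2 in endothelium (0.027, thinned). The cause was not tested. Counts of the genes past 1.5-fold ran over the alternatives from 0 to 2 lower in smooth muscle and from 1 to 3 higher in endothelium with sunitinib. In the combined library they ran from 2 to 6 lower and up to 2 higher in smooth muscle and from 2 to 5 lower and up to 3 higher in endothelium.

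Counts of genes past 1.5-fold moved by over 1.5 times as follows. Shares of the genes measured are in brackets, since the number measured changes with the setting. Without a minimum of UMIs, smooth muscle had 1794 higher (10.9%) and 1366 lower (8.31%) with sunitinib, from 1035 (7.41%) and 664 (4.76%). Endothelium had 2053 (17.6%) and 1178 (10.1%), from 1197 (13.3%) and 496 (5.52%). In endothelium median-of-ratios factors gave 769 lower (8.56%), equal weight per cell 947 lower (10.5%) and thinning 632 higher (16.1%). Smooth muscle cells with at least 5% contractile UMIs gave 381 lower (3.17%). Against sunitinib, the combined library had 4317 higher (32.9%) and 1325 lower (10.1%) in smooth muscle. TMM factors gave 2945 lower (22.5%) and median-of-ratios factors 2873 lower (21.9%). Intron length gave 2846 higher (21.7%) and 2394 lower (18.3%), and at least 3 expected UMIs 2688 higher (26.8%). In endothelium, 3911 higher (37.2%) became 2541 when thinned (39.5%) and 2271 without capillary UMIs (27.4%). Thinning thus lowered the count but not the share.

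No paired analysis was possible because each group has 1 library. The alternatives on Cd74, posterior Hox genes in endothelium, capillary genes, haemoglobin, expected UMIs, the 2% contractile limit and the scaling of the pathway lists were chosen after seeing the data. Alternatives that left a gene with 0 UMIs in the library that would have to be higher gave no value. Depth left Ankrd1, Axl, Nuak2 and Fjx1 without a ratio in endothelium for sunitinib against vehicle, and the combined library's 65 smooth muscle cells limit every gene there.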
